A study of Mus musculus with 6 samples.

Results

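Circadian clock genes were examined in eWAT, the visceral white fat that lies along the epididymis, of mice with and without an adipose-specific Blnc1 transgene. The set comprised Arntl, Npas2, Per1, Per2, Per3, Cry1, Nr1d1, Nr1d2, Dbp and Tef. A gene was measured by the array row that names only that gene, and where a gene had several such rows, by the row with the highest mean over all arrays. By this rule 9 of the 10 genes were measured, of 22180 genes with such a row. No row named Per2 alone, so Per2 was not analysed here. The transgene, Blnc1, is a long noncoding RNA that was described in thermogenic fat. There were 6 arrays: 3 from wild-type mice (WT 1 to WT 3) and 3 from Blnc1 adipose-specific transgenic mice (Tg 1 to Tg 3). All were C57BL/6 males of 8 months whose food was a high-fat diet (HFD) for 21 weeks, so no group on another diet enters any comparison. The promoter behind the transgene, the number of founder lines and the time of day of tissue collection are not given in the sources used here. The labels call the replicates biological, and each array was taken as 1 mouse.

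The clock is a feedback loop of transcription factors. BMAL1, the product of Arntl, pairs with CLOCK or NPAS2 and binds E-box elements, through which it drives the Per and Cry genes, the REV-ERB genes Nr1d1 and Nr1d2, and the output genes Dbp and Tef. PER and CRY proteins then inhibit BMAL1, and REV-ERB proteins repress Arntl, Npas2 and Cry1 through a different element, the RORE. DBP and TEF act on D-box elements, where NFIL3 opposes them. In fat, as in other peripheral tissue, Arntl and Npas2 RNA peaks at about the opposite time of day from Nr1d1 and Dbp RNA, so the balance between these genes shifts with the hour of collection.

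The RefSeq promoters of these genes (build GRCm38.p6) were searched for the elements through which the clock factors act. The 250 bases before each annotated start were read on both strands for the E-box CACGTG, its variant CACGTT, the D-box TTANNTAA and the RORE half-site (TAGGTCA or TGGGTCA). The table held 9 of the 10 genes. An E-box was found in 3 of them (Per1, Cry1 and Tef), the variant in 2 (Cry1 and Nr1d1), a D-box in 2 (Per3 and Tef) and a RORE half-site in 0. Over all 32851 windows of that length, 6.02% held the E-box, 3.85% the variant, 5.43% the D-box and 5.38% a RORE half-site. A gene was counted if any of its windows held the match, so gene counts and window shares are unlike measures. Arntl, Per1 and Tef each had a further window, and the further window of Per1 held no E-box. No matches of different motifs overlapped in the clock genes. The sequences shown are those of a gene with an E-box (Per1), one with an E-box and its variant (Cry1), one with a pair of D-boxes (Per3), and Ciart and Nfil3, a pair of further clock genes whose signal stood apart between the genotypes. Capitals mark the matches, and each sequence runs 5′ to 3′ on the gene's strand and ends at the base before the start.
Per1: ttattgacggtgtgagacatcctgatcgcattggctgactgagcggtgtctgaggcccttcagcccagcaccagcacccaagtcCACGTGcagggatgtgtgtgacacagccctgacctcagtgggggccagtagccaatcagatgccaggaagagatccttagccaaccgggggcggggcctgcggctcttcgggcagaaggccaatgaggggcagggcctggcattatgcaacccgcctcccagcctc
Cry1: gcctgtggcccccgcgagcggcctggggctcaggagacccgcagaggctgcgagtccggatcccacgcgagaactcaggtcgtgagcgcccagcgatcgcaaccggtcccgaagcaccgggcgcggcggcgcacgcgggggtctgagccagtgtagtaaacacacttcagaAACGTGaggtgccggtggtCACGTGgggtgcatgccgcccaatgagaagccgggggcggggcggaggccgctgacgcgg
Per3: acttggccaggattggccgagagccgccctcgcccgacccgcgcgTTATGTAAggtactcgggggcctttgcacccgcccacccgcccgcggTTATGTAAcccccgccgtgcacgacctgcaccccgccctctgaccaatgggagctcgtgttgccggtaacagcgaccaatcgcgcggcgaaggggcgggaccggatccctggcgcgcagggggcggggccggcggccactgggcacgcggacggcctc
Ciart: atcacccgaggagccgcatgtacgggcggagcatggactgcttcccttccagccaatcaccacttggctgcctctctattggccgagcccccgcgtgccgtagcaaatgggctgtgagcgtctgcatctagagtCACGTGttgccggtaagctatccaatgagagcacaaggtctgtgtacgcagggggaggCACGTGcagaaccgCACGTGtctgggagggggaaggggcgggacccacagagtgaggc
Nfil3: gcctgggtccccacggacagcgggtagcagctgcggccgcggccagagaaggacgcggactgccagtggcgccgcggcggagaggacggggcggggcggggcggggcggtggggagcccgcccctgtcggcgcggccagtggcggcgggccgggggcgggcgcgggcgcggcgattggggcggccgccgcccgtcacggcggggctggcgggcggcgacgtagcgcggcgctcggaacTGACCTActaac
These windows lie at chr11:69098699-69098948 (plus strand), chr10:85185055-85185304 (minus strand), chr4:151044666-151044915 (minus strand), chr3:95882229-95882478 (minus strand) and chr13:52981040-52981289 (minus strand), in that order. Ciart held 3 E-boxes, at 116, 58 and 44 bases before the start. A match describes the letters only, the absence of one says only that these letters are not in the window, and the arrays did not measure binding.

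None of the 9 clock genes stood apart between Tg and WT: each gene's groups overlapped and none passed the test. Values are log2 signals, and differences are Tg minus WT with the standard error (SE) of a limma fit across all 41345 rows. P-values were adjusted over all rows with a threshold of 0.05, which 0 of the 9 genes passed and which 0% of all rows passed (smallest adjusted p 0.196). At an unadjusted p under 0.05 in limma there were 0 of the 9 genes, beside 10.3% of all rows and 14.5% of rows brighter than the median row, where all 9 genes lie. The groups overlapped in each of the 9 genes, whereas they did not overlap in 16.7% of all rows. Of the 9 differences 2 were above 0 and 7 below, with a median of -0.08 (all rows: -0.01). With 3 arrays a side, 0.1 is the smallest 2-sided p that an exact permutation test allows, and for these genes it gave 0.2 to 0.9.

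**Figure D1:**
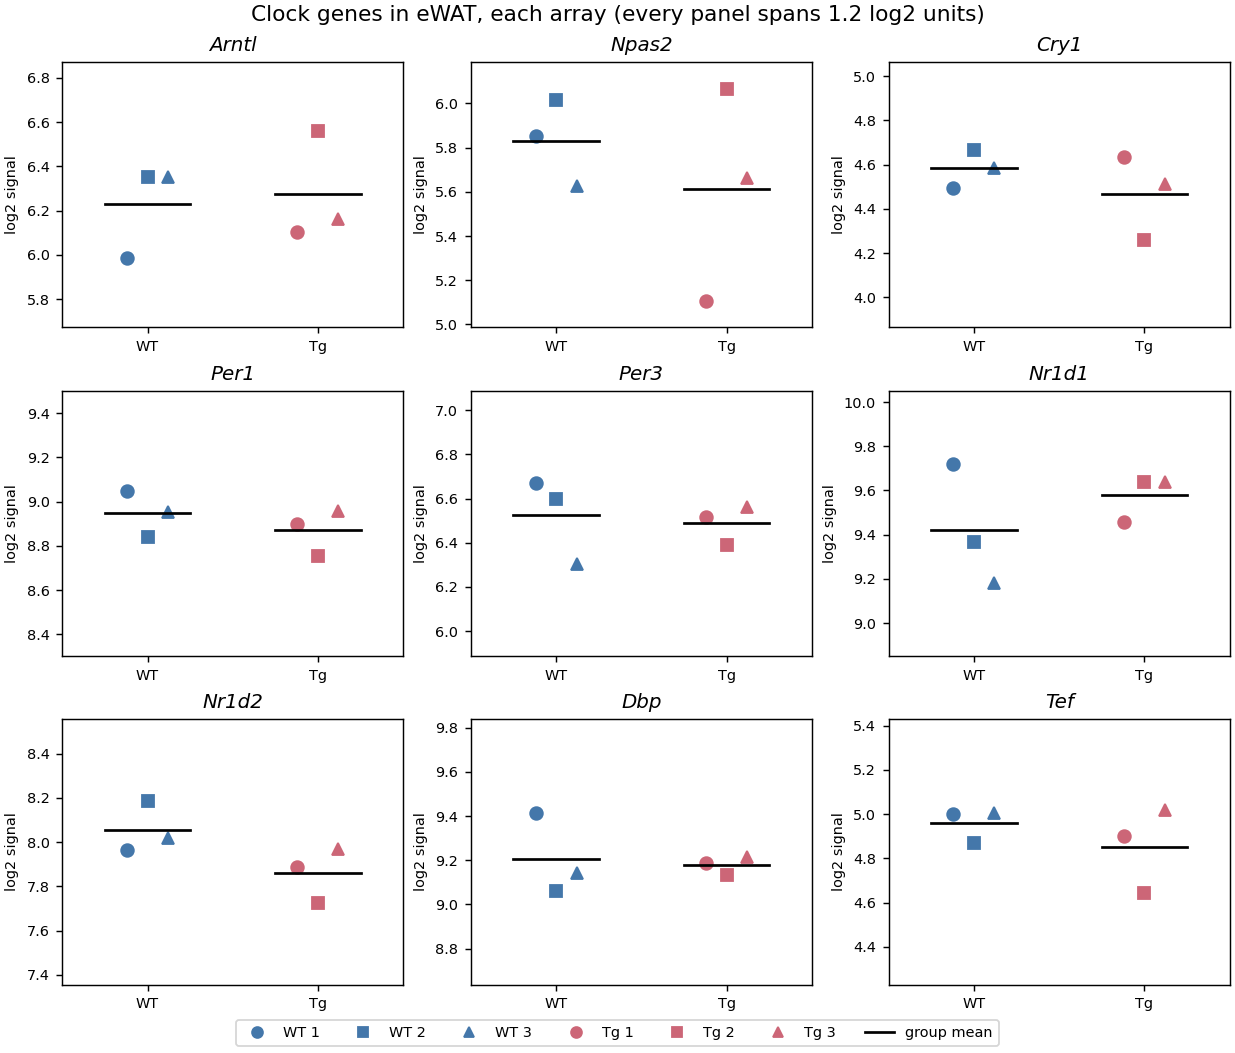
Log2 signal (vertical axis) of the 9 measured clock genes in each of the 6 arrays, with WT in blue, Tg in red, a marker for each replicate number and a line at each group mean of 3 arrays. The groups overlap in every panel, and the widest spread is that of Npas2, from 5.11 in Tg 1 to 6.07 in Tg 2.

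Arntl and Npas2 encode the activators. Arntl read 5.99, 6.35 and 6.35 in the WT arrays (WT 1, WT 2 and WT 3 in turn, here and for each gene that follows) and 6.10, 6.56 and 6.16 in the Tg arrays (Tg 1, Tg 2 and Tg 3). The lowest and the highest array were WT 1 and Tg 2, and the difference between genotypes was 0.04 ± 0.17 (SE, n = 3 per group; 95% confidence interval -0.37 to 0.45; limma adjusted p = 0.95). Npas2, which encodes the partner that can replace CLOCK, read 5.85, 6.02 and 5.62 in the WT arrays and 5.11, 6.07 and 5.66 in the Tg arrays. Its Tg arrays held both the lowest and the highest value of the 6, a 1.94-fold span, and the difference was -0.22 ± 0.25 (SE, n = 3 per group; 95% confidence interval -0.82 to 0.38; limma adjusted p = 0.80). Without Tg 1 it was 0.03.

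The genes of the inhibitors overlapped between the genotypes as well. Per1, which also responds directly to hormonal signals, read 9.05, 8.84 and 8.95 in the WT arrays and 8.90, 8.76 and 8.96 in the Tg arrays. The 6 values lay within 1.22-fold of each other, the narrowest span of the 9 genes, and the difference was -0.08 ± 0.11 (SE, n = 3 per group; 95% confidence interval -0.34 to 0.18; limma adjusted p = 0.84). Per3 read 6.67, 6.60 and 6.31 in the WT arrays and 6.52, 6.39 and 6.56 in the Tg arrays, with WT 3 the lowest array and a difference of -0.03 ± 0.13 (SE, n = 3 per group; 95% confidence interval -0.34 to 0.28; limma adjusted p = 0.95). Cry1, the repressor that closes the loop, read 4.49, 4.67 and 4.59 in the WT arrays and 4.63, 4.26 and 4.51 in the Tg arrays. Tg 2 was the lowest array and WT 2 the highest, and the difference was -0.11 ± 0.13 (SE, n = 3 per group; 95% confidence interval -0.42 to 0.19; limma adjusted p = 0.79).

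The REV-ERB genes had differences of opposite sign, neither past the threshold. Nr1d1 read 9.72, 9.37 and 9.18 in the WT arrays and 9.46, 9.64 and 9.64 in the Tg arrays. WT 1 lay above all Tg arrays and WT 2 and WT 3 below them. The difference was 0.16 ± 0.16 (SE, n = 3 per group; 95% confidence interval -0.22 to 0.53; limma adjusted p = 0.77). Nr1d2, its paralogue, read 7.97, 8.18 and 8.02 in the WT arrays and 7.89, 7.73 and 7.97 in the Tg arrays. Only WT 1 reached into the range of the Tg arrays, lying 0.0018 below Tg 3, and this gene had the smallest adjusted p of the set. Its difference was -0.19 ± 0.11 (SE, n = 3 per group; 95% confidence interval -0.47 to 0.08; limma adjusted p = 0.60).

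Among the outputs, Dbp is the gene whose RNA follows BMAL1 activity most directly. It read 9.41, 9.06 and 9.14 in the WT arrays and 9.19, 9.13 and 9.21 in the Tg arrays. The 3 Tg arrays lay within 0.08 of each other and inside the range of WT, and the difference was -0.03 ± 0.12 (SE, n = 3 per group; 95% confidence interval -0.32 to 0.26; limma adjusted p = 0.96). The interval corresponds to a Tg level between 0.803 and 1.20 times that of WT, so a larger change of Dbp in either direction lies outside it. Tef, a relative of Dbp, read 5.00, 4.87 and 5.00 in the WT arrays and 4.90, 4.64 and 5.02 in the Tg arrays and differed by -0.11 ± 0.13 (SE, n = 3 per group; 95% confidence interval -0.41 to 0.20; limma adjusted p = 0.81). A dimmer row of Tef read 3.73, 3.82 and 3.90 in the WT arrays and 2.69, 3.86 and 3.54 in the Tg arrays, a difference of -0.45 ± 0.29 with overlapping groups.

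**Figure D2:**
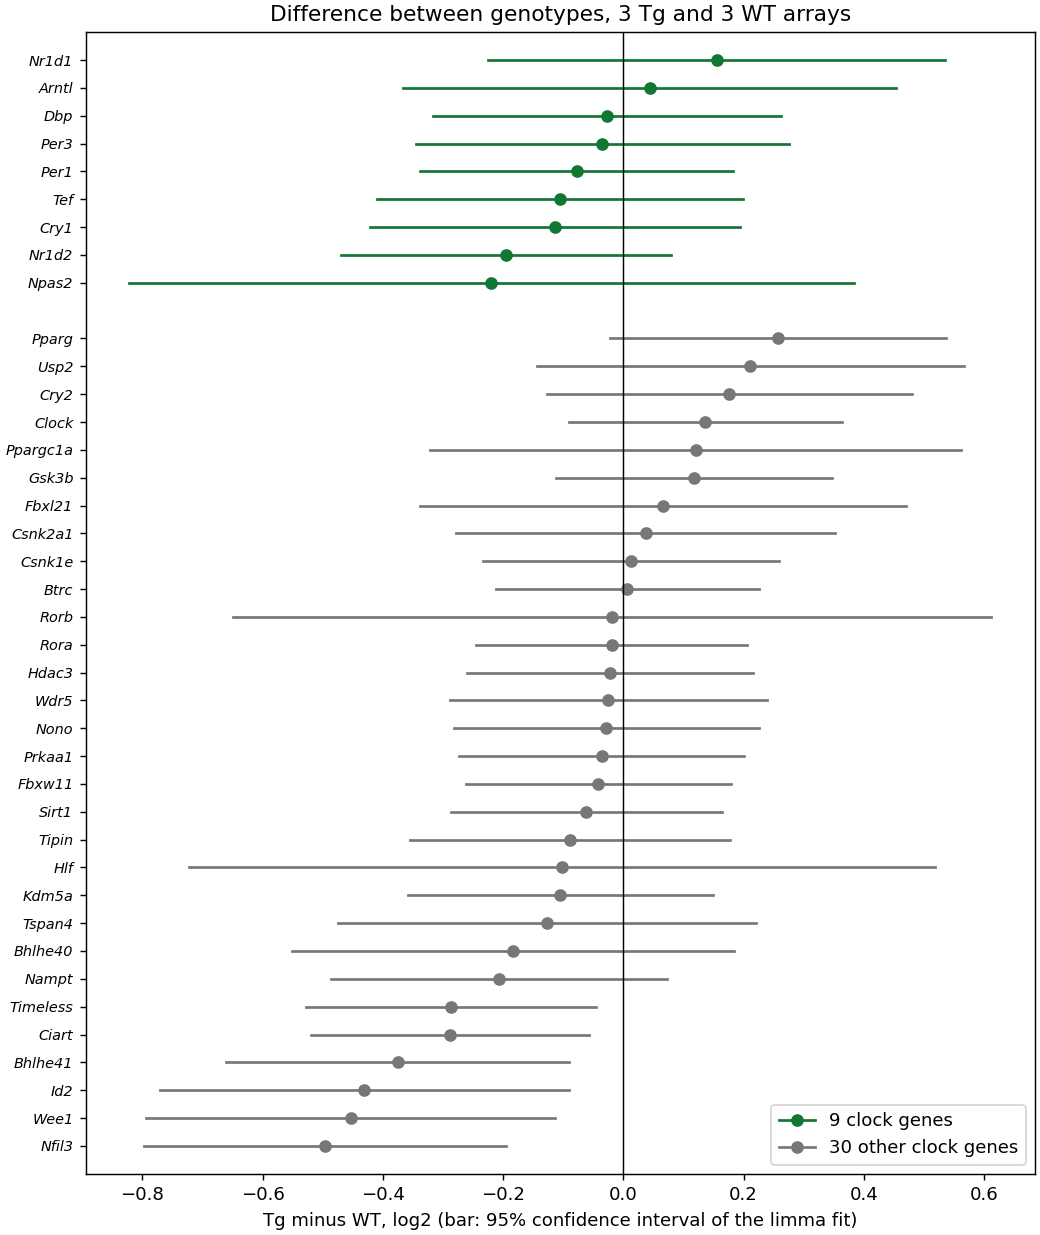
Difference between Tg and WT in log2 units (horizontal axis; points are estimates and bars 95% confidence intervals of the limma fit, 3 arrays per group) for the 9 clock genes in green and 30 other clock genes in grey. All 9 green bars cross 0, and 6 grey bars, from Timeless at -0.29 to Nfil3 at -0.50, lie below it, although no gene passed the adjusted threshold.

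Whether the genotypes stood at different positions of the daily cycle was examined through the balance of the arms. Cry1 was placed in the RORE arm although BMAL1 also drives the Cry genes through E-boxes, so that arm is mixed. Each gene was centred on its mean over the 6 arrays. The mean of Arntl, Npas2 and Cry1 (RORE arm) was then subtracted from that of Per1, Per3, Nr1d1, Nr1d2, Dbp and Tef (E-box arm). This arm difference was 0.20, -0.19 and -0.08 in the WT arrays and 0.20, -0.24 and 0.12 in the Tg arrays. Its mean was -0.02 ± 0.20 in WT and 0.02 ± 0.23 in Tg (SD, n = 3), so the genotypes differed by 0.05, less than the spread within either. Both groups held arrays on both sides of 0. The whole range over 6 arrays was 0.44, and single genes spanned 1.27-fold (Dbp), 1.45-fold (Nr1d1) and 1.49-fold (Arntl) from the lowest to the highest array. Over the 9 genes the median range was 0.41 on the log2 scale, against 0.53 for rows brighter than the median row. The labels give no collection times, so whether the hour differed between arrays was not tested, and these values describe only the balance of the transcripts.

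The arm difference divided the arrays along a line other than genotype. Since each gene was centred on the 6 arrays, values on both sides of 0 were certain, and only which arrays fell where was open. It was above 0 in WT 1, Tg 1 and Tg 3 and below 0 in WT 2, WT 3 and Tg 2. Arntl lay between 5.99 and 6.16 in the first of these sets and between 6.35 and 6.56 in the other. Dbp lay the other way, between 9.19 and 9.41 in the first and between 9.06 and 9.14 in the other. Of the 9 clock genes only these 2 separated the sets, and the others overlapped. The share of all rows that separate these sets was not counted. Since the sets follow the sign of a value computed from the clock genes, the separation of Arntl and Dbp is in part built in and is only a description. The same arrays, WT 2, WT 3 and Tg 2, had more signal, on average, of epithelial and male reproductive tract genes. A list of 12 such genes, also chosen after their values were seen, had centred means of 0.94, 1.49 and 0.58 there and of -1.12, -0.80 and -1.09 in WT 1, Tg 1 and Tg 3. Its summed linear signal ran from 69.0 to 759 in WT and from 68.1 to 246 in Tg. Of the 12 genes 9, 10 and 8 read above the median row in WT 2, WT 3 and Tg 2, and 4, 6 and 5 in WT 1, Tg 1 and Tg 3, so the latter had less of this signal and not none. The genes differed among the 3 arrays. Defb42, a defensin gene of the epididymis, read 4.37, 5.67 and 5.64 in WT 2, WT 3 and Tg 2 and 0.93, 1.19 and 1.16 in WT 1, Tg 1 and Tg 3. Serpina1f read 6.58 and 8.09 in WT 2 and WT 3 but 1.66 in Tg 2, and Spink8 read 6.55 and 8.09 but 2.53. In the epididymis list, of which 22 of 25 genes were measured, 14 genes read above the median row in Tg 2 and at most 2 in any other array, and the summed signal was 55.1 to 63.8 in WT, 55.2 to 70.8 in Tg 1 and Tg 3, and 4596 in Tg 2. Lcn5, a lipocalin gene of the epididymis, stayed between 1.40 and 2.44 in all 6 arrays. The part of this tissue in the arm difference was not tested. Among WT 1, Tg 1 and Tg 3 the genotypes differed by -0.04 in arm difference, and among WT 2, WT 3 and Tg 2 by -0.11, with 1 array on one side in each.

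**Figure D3:**
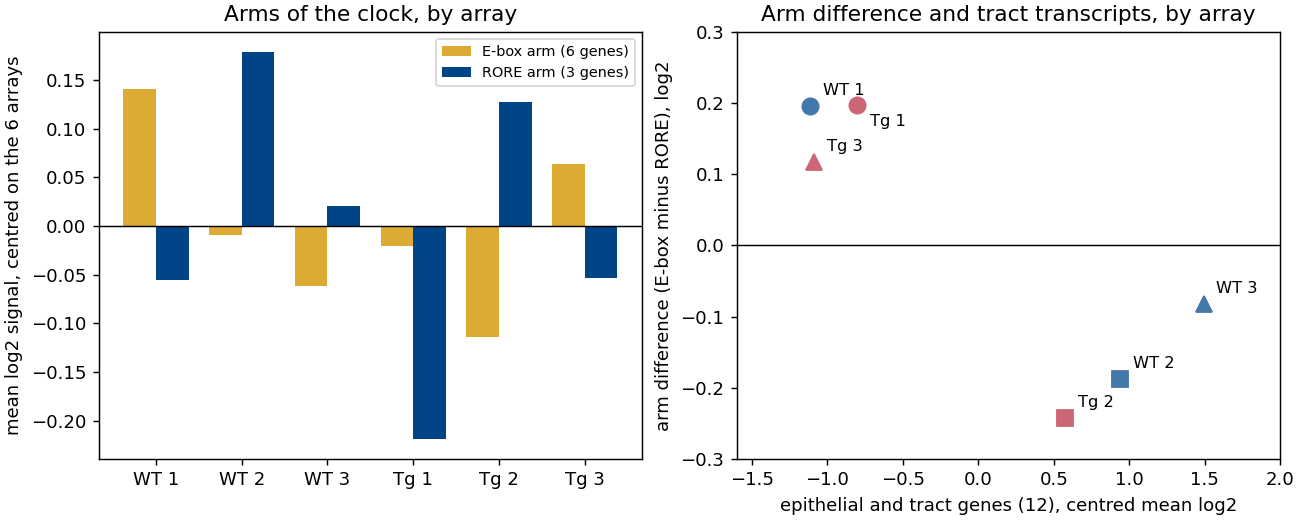
Left, mean log2 signal of the E-box arm (6 genes) and the RORE arm (3 genes), each gene centred on the 6 arrays, as bars for each array. Right, arm difference (vertical axis, log2) against the centred mean of 12 epithelial and tract genes (horizontal axis, log2), 1 point per array with WT blue and Tg red: WT 1, Tg 1 and Tg 3 sit at 0.12 to 0.20, and WT 2, WT 3 and Tg 2 at -0.24 to -0.08. The 12 genes were chosen after their values were seen.

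Of 35 other genes of the clock, its regulators and direct outputs, 30 were measured, and 0 passed the adjusted threshold in limma. Among them 20 were lower and 10 higher in Tg, with a median of -0.03 (all rows: -0.01). At an unadjusted p under 0.05 there were 6 lower genes, or 20.0% of the list beside 5.88% of all rows in that direction, and 0 higher ones, beside 4.43% of all rows. A fit limited to rows brighter than the median row held 29 of these genes. It gave the same 6 lower and 0 higher genes (8.41% and 6.46% of those rows). This split depended on the scaling, as did that over all rows, where 43.0% of those at an unadjusted p under 0.05 were higher in Tg, and 64.7% after median centring. With each array centred on its median, Ciart and Timeless dropped out and Pparg entered, which gave 4 lower genes and 1 higher gene (3.82% and 6.99% of all rows). Quantile normalization gave 4 lower and 0 higher genes (4.72% and 5.62% of all rows). Leaving out WT 2 gave 3 lower and 0 higher genes (4.2% and 3.31% of all rows). Leaving out Tg 2 gave 3 lower genes and 1 higher gene, Pparg (4.77% and 4.54% of all rows). The groups did not overlap in 10 genes (33.3%, beside 16.7% of all rows and 22.1% of rows brighter than the median row), of which 6 were lower (9.35% of all rows and 13% of rows brighter than the median row) and 4 higher (7.36% of all rows).

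The 6 lower genes include repressors of the loop. Nfil3, which encodes the D-box repressor, read 4.44, 4.66 and 4.83 in the WT arrays and 4.09, 4.17 and 4.20 in the Tg arrays. Every Tg array lay below every WT array, by 1.41-fold on average, and the difference was -0.50 ± 0.13 (SE, n = 3 per group; 95% confidence interval -0.80 to -0.19; limma adjusted p = 0.35). Bhlhe41, which encodes the E-box repressor DEC2, read 7.28, 7.40 and 7.39 in the WT arrays and 6.79, 7.09 and 7.07 in the Tg arrays, and differed by -0.38 ± 0.12 (SE, n = 3 per group; 95% confidence interval -0.66 to -0.09; limma adjusted p = 0.40). Ciart, which encodes a repressor of BMAL1 and carries 3 E-boxes in the promoter shown, read 4.99, 4.88 and 4.81 in the WT arrays and 4.61, 4.57 and 4.64 in the Tg arrays. Its Tg arrays lay within 0.07 of each other, and the difference was -0.29 ± 0.10 (SE, n = 3 per group; 95% confidence interval -0.52 to -0.06; limma adjusted p = 0.41).

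Timeless, which works with its partner Tipin at replication forks, read 4.19, 4.10 and 4.15 in the WT arrays and 3.84, 3.77 and 3.98 in the Tg arrays, a difference of -0.29 ± 0.10 (SE, n = 3 per group; 95% confidence interval -0.53 to -0.05; limma adjusted p = 0.43). Wee1, a cell cycle kinase gene under E-box control, read 6.91, 6.93 and 7.29 in the WT arrays and 6.65, 6.44 and 6.68 in the Tg arrays, a difference of -0.45 ± 0.14 (SE, n = 3 per group; 95% confidence interval -0.79 to -0.11; limma adjusted p = 0.39). Id2, which encodes an inhibitor of helix-loop-helix factors, read 8.11, 8.38 and 8.58 in the WT arrays and 7.88, 8.02 and 7.87 in the Tg arrays, a difference of -0.43 ± 0.14 (SE, n = 3 per group; 95% confidence interval -0.77 to -0.09; limma adjusted p = 0.41). In all 6 the groups were apart. When the fit was limited to the set with less of the tract signal (WT 1, Tg 1 and Tg 3, so 1 WT array), Nfil3 read -0.30, Wee1 -0.24 and Id2 -0.23, and Bhlhe41 (-0.35), Ciart (-0.37) and Timeless (-0.28) stayed closer to the values from all arrays. In the set with more of that signal (WT 2, WT 3 and Tg 2, so 1 Tg array), Nfil3 read -0.58, Wee1 -0.67 and Id2 -0.46. Bhlhe41 read -0.30 there, Ciart -0.28 and Timeless -0.36. The part of the tract tissue in these differences was not tested. Each of the 6 kept its sign under all 19 alternative settings that were run. Since the groups were apart, fits on fewer arrays or with weighted arrays could not change the sign. Settings that changed only the eBayes step of limma or the rows kept left the differences as they were. Renormalization and the epididymis mean as a covariate could have changed it, but they reuse the same arrays. The kept sign is therefore no support. The smallest limma adjusted p over these settings was 0.215 (Nfil3).

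**Figure D4:**
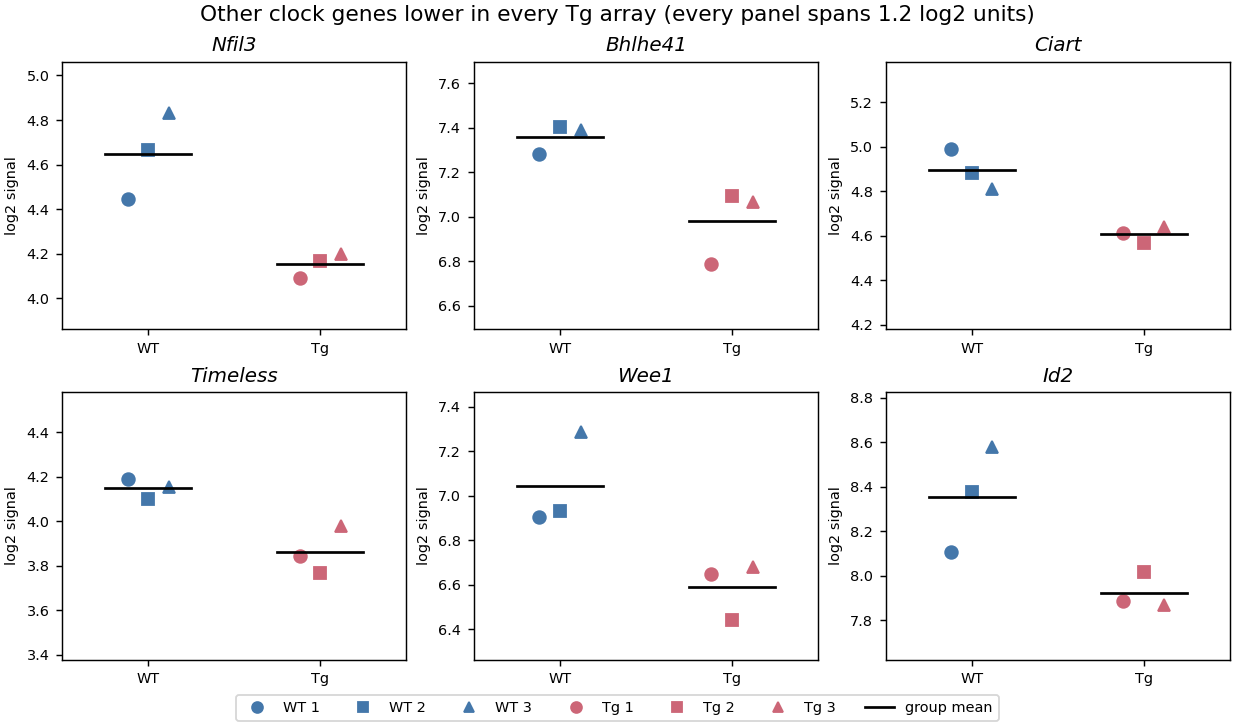
Log2 signal (vertical axis) in each array of the 6 other clock genes with an unadjusted p under 0.05, with WT in blue, Tg in red and lines at the means of 3 arrays. All Tg points lie below all WT points in each panel, and the genes were picked for this difference.

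Other core genes leaned the other way by small amounts. Clock, the usual partner of BMAL1, read 9.45, 9.47 and 9.41 in the WT arrays and 9.48, 9.65 and 9.61 in the Tg arrays, with groups apart and a difference of 0.14 ± 0.09 (SE, n = 3 per group; 95% confidence interval -0.09 to 0.36; limma adjusted p = 0.66). Cry2 read 6.63, 6.58 and 6.25 in the WT arrays and 6.69, 6.67 and 6.64 in the Tg arrays, also apart, with a difference of 0.18 ± 0.13 (SE, n = 3 per group; 95% confidence interval -0.13 to 0.48; limma adjusted p = 0.67). Gsk3b, a kinase gene of the loop (0.12 ± 0.10), and Pparg, the adipocyte master regulator whose gene is also a white adipocyte marker (0.26 ± 0.12), were the other members above WT without overlap. Usp2, a rhythmic deubiquitinase gene (0.21 ± 0.15), Bhlhe40, the paralogue of Bhlhe41 (-0.18 ± 0.15), and Nampt, the enzyme gene of NAD synthesis (-0.21 ± 0.12), overlapped between the groups. Rora and Rorb, whose products compete with REV-ERB at ROREs, each read -0.02.

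Markers of several cell types lay apart between the genotypes along with these 6 genes. White adipocyte markers were measured in 16 of 18 genes and all 16 were higher in Tg, with a summed linear signal of 24529 to 27565 in WT and 28426 to 32895 in Tg. Macrophage markers were lower in 13 of 14 genes (13224 to 14112 in WT and 11507 to 11801 in Tg), and mast cell markers in 9 of 9 (1287 to 2514 in WT and 623 to 881 in Tg). The macrophage marker that was higher, Cd163, differed by 0.64 ± 0.14 with groups apart. T and NK cell markers were lower in 9 of 9 measured genes, with overlapping sums (186 to 849 in WT and 173 to 317 in Tg), and endothelial markers higher in 10 of 10 (2966 to 4246 in WT and 4422 to 5106 in Tg). Mesothelial markers were higher in 5 of 7 genes (375 to 543 in WT and 452 to 573 in Tg) and muscle markers in 6 of 9 (245 to 314 in WT and 319 to 459 in Tg). Most of the muscle sum came from Acta1, which read 7.49 to 8.55 with overlapping groups. Ckm (-0.62), Tnnc2 (-0.36) and Myh1 (-0.05) were lower, and 4 or 5 of the 9 muscle genes read above the median row in each array. No gene of these lists passed the adjusted threshold. The part of these cells in the signal of Nfil3, Bhlhe41, Ciart, Timeless, Wee1 and Id2 was not tested, and in bulk tissue fewer cells of a type and less RNA per cell cannot be told apart. All 16 white adipocyte markers read above the median row in every array. So did all 14 macrophage, 10 endothelial and 7 mesothelial markers, so this reading does not test the tissue label.

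The genes whose pattern was most like that of Arntl over the 6 arrays were Vill (Pearson's r = 0.96), Agmat (0.95), Kcnk1 (0.95) and Krtap4-13 (0.94), out of 5236 genes brighter than the median row with a range of at least 0.5. Kcnk1, a potassium channel gene, read 5.21, 4.28 and 5.99 in WT 2, WT 3 and Tg 2 and at most 3.88 in the other arrays. Most like Dbp were Pkdcc (0.99), Rpl39 (0.99), Pidd1 (0.99) and Olfr1034 (0.98), each highest in WT 1. With 6 arrays and so many genes, values of this size are a description, and the points share tissue composition and normalization.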

How the data were processed

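RNA of 6 eWAT samples was biotin-labelled from 400 ng with an Affymetrix kit for whole-transcript arrays, as the labels state. The authors deposited 1 log2 value per row and array. Per the submitters' processing notes, RMA (background correction, normalization between arrays and probe summary) and limma were used. Settings, versions and build: not given in the sources used here. No detection calls were used. RMA compresses differences between low signals. Of 41345 rows, 23521 named 1 gene in the platform annotation, 1814 several and 16010 none.

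Tg and WT were compared over all rows with limma 3.58.1 in R 4.3.3 (lmFit, eBayes, 2-sided, no filter, no covariate), with Benjamini-Hochberg adjustment over all rows and a threshold of 0.05. The procedure was tested on simulated data. The number of arrays limits the precision.

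The genes, the lists and the tests were chosen with earlier results of these data known. Named genes were the clock genes, the other clock genes, the 3 genes with the smallest p of the glucocorticoid and temperature lists, the 4 genes most like Arntl and Dbp, and some cell markers, of which Lcn5 is given singly. The 12 epithelial and tract genes, Defb42, Serpina1f and Spink8 among them, were chosen after their values were seen. Promoters came from RefSeq, build GRCm38.p6. Alternatives left out arrays, renormalized, filtered, changed the variance model, added covariates and averaged rows. The labels do not say whether replicate numbers pair the samples, so the main fit was unpaired.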

Additional observations from a re-analysis of the deposited data

How the results depend on the processing

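Under all alternatives run, 0 of the 9 clock genes, 0 of the 30 other clock genes and 0 rows passed in limma, also at an adjusted p of 0.10 and with the replicate number as a block (replicate block, 0 of each; 4034 rows at an unadjusted p under 0.05, beside 4263 without it). Deviations of same-numbered arrays correlated at -0.04, 0.01 and -0.04, and 0 of 3 arrays correlated best with their own number. The arm difference between Tg and WT moved by less than 1 SD in each alternative run and lay between -0.11 and 0.18. Signs of several differences, small and larger ones, depended on the setting, and the cause was not tested. Npas2, with the largest difference of the 9 clock genes, kept its sign in 17 of 19 settings. Centring arrays on their medians gave 0.030 for Per3 and 0.037 for Dbp. Array weights gave 9.7e-04 for Dbp. The epididymis mean as a covariate gave -0.11 for Arntl, 0.019 for Per3 and 0.011 for Tef. With only WT 1, Tg 1 and Tg 3, Cry1 read 0.080, Nr1d1 -0.17 and Hspa1b 0.040. With only WT 2, WT 3 and Tg 2, chosen after seeing the data, Npas2 read 0.25, Dbp 0.031 and Bhlhe40 0.033. Both rest on a lone array assumed to vary like the others. Leaving out 1 array gave -0.098 to 0.13 for Arntl, -0.45 to 0.033 for Npas2, -0.14 to 0.039 for Per3 and -0.099 to 0.075 for Dbp, and without a change of sign 0.034 to 0.30 for Nr1d1, -0.196 to -0.0090 for Cry1, -0.19 to -9.8e-05 for Tef, -0.13 to -0.020 for Per1, -0.25 to -0.13 for Nr1d2 and 0.059 to 0.25 for Cry2. Nr1d2 and Per1 kept their sign under all 19 settings.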

Other observations

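Hormonal and temperature signals also reach the clock, Per1 among its targets. Of 14 glucocorticoid-responsive genes 5 were higher and 9 lower in Tg, with a median of -0.07, and limma called 0 at the adjusted threshold and 1 (7.14%) at an unadjusted p under 0.05, beside 10.3% of all rows. Fkbp5, a chaperone gene induced by glucocorticoids, read 5.51, 5.79 and 5.72 in the WT arrays and 5.36, 5.44 and 5.24 in the Tg arrays, with groups apart and a difference of -0.33 ± 0.12 (SE, n = 3 per group; 95% confidence interval -0.61 to -0.05; limma adjusted p = 0.43). Pdk4, the kinase gene that slows pyruvate oxidation, overlapped between the groups at 0.45 ± 0.19, and Cebpd read -0.35 ± 0.16 with groups apart.

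Of 10 genes that follow body temperature 9 were measured, 4 of them higher and 5 lower in Tg, with a median of -0.03 and 0 at an unadjusted p under 0.05 in limma, beside 10.3% of all rows. The 3 with the smallest p were the heat-shock genes Hspb1 (0.33 ± 0.15), Hspa1b (-0.38 ± 0.18) and Hspa1a (-0.36 ± 0.18), none past the adjusted threshold. Hspa1a and Hspa1b are near-identical copies whose probes may not separate them.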
